A study of Mus musculus with 6 samples.

Results

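The Igf2bp, Lin28 and Hmga genes, with Igdcc3, Igdcc4 and Trim71, were followed in fetal mouse lungs at E18.5, shortly before birth. These 10 genes were chosen by symbol, as fetal genes under let-7 control plus Igdcc4. The choice was made with the contrast between the genotypes already known, so the values of these genes describe that contrast and do not test it. The array annotation gave 26 of 45037 probe sets to 8 of the 10 genes, out of 18193 genes with a probe set of their own, and Igf2bp2 and Hmga1 were not analysed here because no probe set carried their symbol. The 6 arrays, labelled biological replicates, hold total RNA of 3 lung samples labelled Nfib f/f with Dermo1-Cre and of 3 labelled Nfib f/f alone, and whether a sample pooled animals is not given. Nfib encodes the transcription factor nuclear factor I B, and by their labels both groups carried the floxed alleles. The Cre driver sits in Dermo1 (Twist2), a gene active in mesenchyme, while RNA of the whole lung was measured. The label Nfib f/f alone names no Cre driver, so any effects of the driver and of Nfib deletion cannot be told apart here. By its title, the study concerns the role of mesenchymal Nfib in proliferation and epithelial differentiation of the maturing lung.

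In brief, Igdcc4 was 2.94-fold higher by its brightest probe set in Cre-labelled lungs, and no other of the 6 tested genes passed the array-wide threshold. The Igdcc4 call was lost under some alternative settings given below. Lin28a and Lin28b lay below the filter on low signal in both groups.

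The groups are called Cre-labelled and control-labelled because the arrays did not check the genotype. Signal of the brightest Nfib probe set averaged 11.30 ± 0.17 in Cre-labelled and 10.24 ± 0.07 in control-labelled lungs (log2 signal, SD, n = 3 each), higher in the lungs whose floxed Nfib alleles the label gives as exposed to Cre. Of the 6 tested Nfib probe sets, 5 were called higher, and the other averaged 9.45 ± 0.22 in Cre-labelled and 9.55 ± 0.13 in control-labelled lungs, with overlapping groups. No source used here says where the Nfib probes lie relative to the deleted part, so every direction below rests on the labels, and whether the labels were exchanged between the groups cannot be told from these arrays. If they were, every sign below would turn. Values are log2 MAS5 signals, a background-subtracted intensity scale on which values far below 4 are noisy, and levels of different probe sets cannot be set against each other. Among markers of lung epithelium, Sftpc averaged 12.66 in Cre-labelled and 12.73 in control-labelled lungs, and Nkx2-1 4.65 in Cre-labelled and 5.11 in control-labelled lungs. Among those of mesenchyme, Tbx4 averaged 10.27 in both groups, and Twist2, the driver gene, 4.93 in Cre-labelled and 5.21 in control-labelled lungs. These markers show the tissue sampled and not that its makeup was matched. In the same lists, 3 epithelium genes were called lower and 1 mesenchyme gene higher in Cre-labelled lungs, as given below. Over all probe sets, arrays correlated at 0.940 to 0.950 within groups and at 0.931 to 0.949 between them.

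The let-7 microRNAs are short RNAs that build up as tissues mature and hold back a set of fetal messenger RNAs. LIN28A and LIN28B are RNA-binding proteins that block let-7 processing and are themselves let-7 targets, so LIN28 and let-7 hold each other back. The IGF2BP proteins bind messenger RNAs such as that of Igf2 and affect their stability and translation. HMGA1 and HMGA2 are small chromatin proteins with AT-hooks, TRIM71 is a ring finger and NHL repeat protein first known from worms as LIN-41, and IGDCC3 and IGDCC4 (Punc and Nope) are cell surface proteins of the DCC and neogenin branch of the immunoglobulin superfamily.

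Mature let-7 was not measured by these messenger RNA arrays. The mature sequences of let-7a to let-7i and miR-98 are shown because the seed, bases 2 to 8 and given here in capitals, is the stretch through which let-7 recognises its target messenger RNAs. The sequences are from RefSeq (GRCm38.p6).
let-7a-5p: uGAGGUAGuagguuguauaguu
let-7b-5p: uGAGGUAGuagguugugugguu
let-7c-5p: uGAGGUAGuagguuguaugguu
let-7d-5p: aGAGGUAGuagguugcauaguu
let-7e-5p: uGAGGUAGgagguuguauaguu
let-7f-5p: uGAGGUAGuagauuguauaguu
let-7g-5p: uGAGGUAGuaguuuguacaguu
let-7i-5p: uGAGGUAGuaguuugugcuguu
miR-98-5p: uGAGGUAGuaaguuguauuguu
The RefSeq entries let-7j and let-7k are not printed, of which let-7k has the same seed and let-7j has GAGGUAU. The sequences printed share the seed GAGGUAG, and those other than let-7a-5p differ from it at 1 to 4 positions outside the seed. Counted from 1 at the 5′ end, let-7c-5p has the substitution A19G and let-7f-5p has G12A, and let-7i-5p has G12U, A17G, U18C and A19U.

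Several let-7 hairpins lie within longer genes, and some of those were on the array. Wdr82, which encodes a subunit of a histone H3 lysine methyltransferase complex and whose RefSeq interval holds the let-7g hairpin (chr9:106178840-106178927), read 10.10, 10.19 and 10.28 in Cre-labelled lungs, against 9.77, 9.91 and 9.69 in control-labelled lungs. The groups did not overlap, but the log2 difference of 0.40 ± 0.10 SE did not pass the threshold (limma adjusted p = 0.063). Huwe1, a ubiquitin ligase gene whose interval holds the hairpins of let-7f-2 and miR-98, averaged 9.43 ± 0.10 in Cre-labelled and 9.35 ± 0.03 in control-labelled lungs (log2 signal, SD, n = 3 each; limma adjusted p = 0.73). Lncppara, a long noncoding RNA gene around let-7b and let-7c-2, averaged 5.33 ± 0.16 in Cre-labelled and 5.45 ± 0.05 in control-labelled lungs (limma adjusted p = 0.79). Host gene signal is not a measure of mature let-7.

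Of the 26 probe sets, 19 reached the filter, a mean over all 6 arrays at or above the 40th percentile of the array (log2 signal 4.0), and these came from 6 genes. The other 7 were given no test. Over the array, 963 of 27022 tested probe sets were called at an adjusted p below 0.05 (3.56%), with 1.41% called higher and 2.16% lower in Cre-labelled lungs. Among the 19, 2 were called higher and none lower, both of Igdcc4. Counted by the brightest probe set of each gene, 1 of 6 tested genes was called, against 4.96% of the 12826 genes tested (1.92% higher and 3.04% lower). At an unadjusted p below 0.05, a cut used further on for lists with no call, stood 23.6% of all tested genes, 10.7% higher and 12.8% lower, and 48.5% had a positive difference. Cre-labelled and control-labelled arrays did not overlap for 6 of the 19, against 26.1% of all tested probe sets (13.3% with the Cre-labelled arrays higher and 12.8% lower). The 6 were the bright Igdcc4 pair, a probe set each of Igdcc3, Igf2bp1 and Trim71, all higher in Cre-labelled lungs, and the dimmest of Igf2bp3, lower there. Those of Igdcc3 and Igf2bp3 reached the filter only through the group where they were higher, so they add no support to this count. The median log2 difference of the 19 was 0.15, and 0.11 for the 17 that were not Igdcc4, against 0.00 over all tested probe sets.

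**Figure D1:**
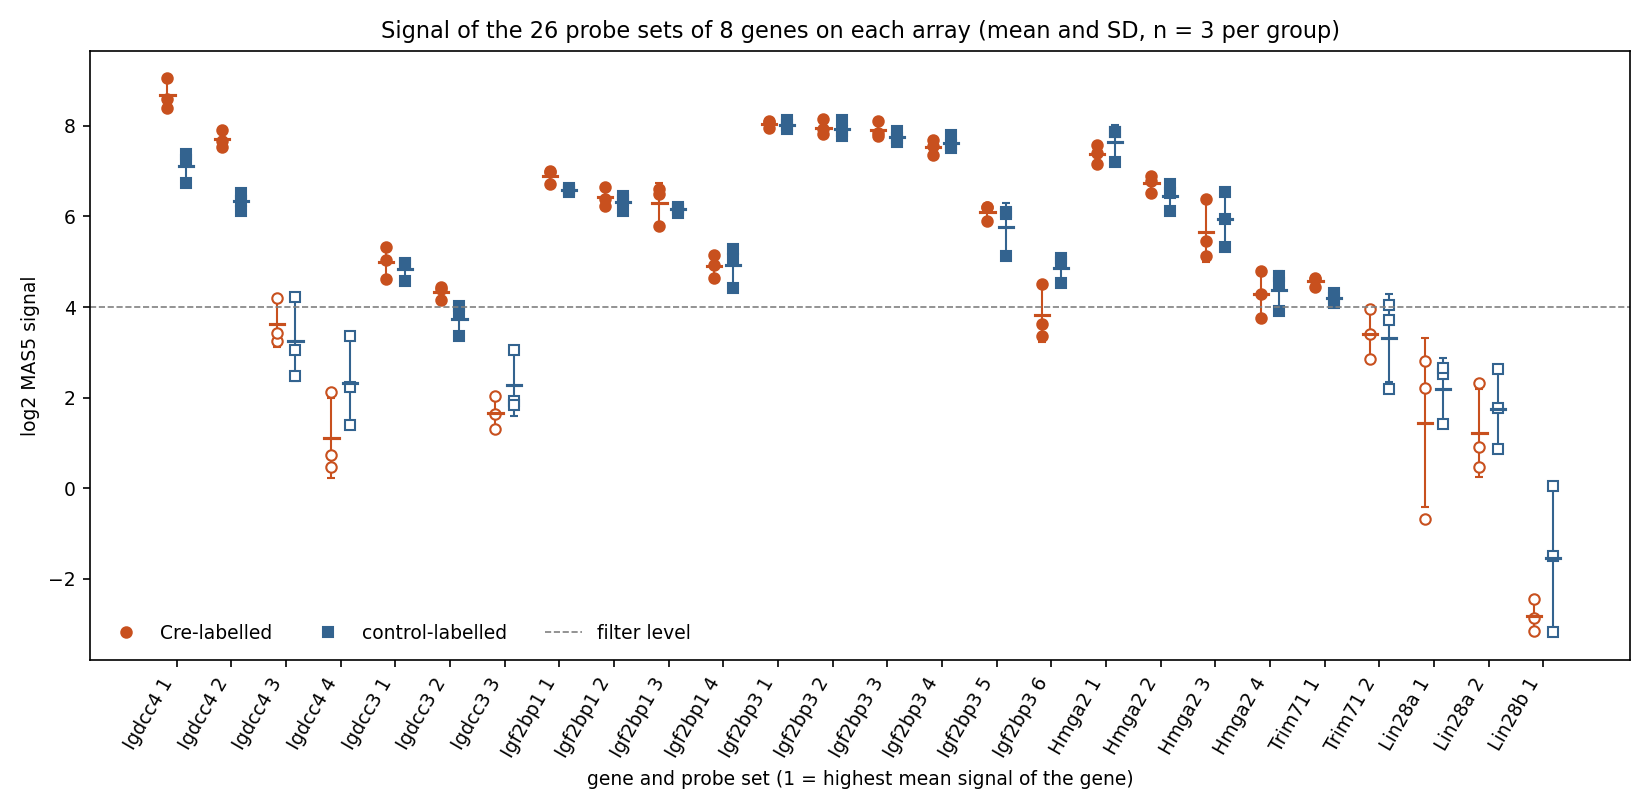
Log2 MAS5 signal on each array for the 26 probe sets, Cre-labelled arrays as circles left of control-labelled arrays as squares, with the mean and SD (n = 3 per group); open symbols are probe sets below the filter, and the dashed line is the filter level of 4.0. The groups of Igdcc4 probe sets 1 and 2 stand clear of each other, while those of Igf2bp3 probe sets 1 to 4 lie on top of each other and Lin28b lies below 0 on 5 of 6 arrays.

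Among the cell surface receptors, Igdcc4 was higher on all 3 Cre-labelled arrays. Its brightest probe set read 8.59, 8.40 and 9.05 in Cre-labelled lungs, against 7.26, 7.39 and 6.73 in control-labelled lungs. Every Cre-labelled array was above every control-labelled one. The log2 difference was 1.56 ± 0.21 SE, with a 95% interval of 1.09 to 2.02 from the limma fit, unadjusted. A second probe set read 7.67, 7.53 and 7.91 in Cre-labelled lungs, against 6.52, 6.34 and 6.13 in control-labelled lungs. Its groups did not overlap either, and its log2 difference was 1.37 ± 0.16 SE (95% interval 1.02 to 1.72), a 2.59-fold difference. The brightest probe set was not called in a fit without the intensity trend, while the second was, and the mean over all 4 Igdcc4 probe sets, with a log2 difference of 0.52, was not called. The remaining 2 Igdcc4 probe sets lay below the filter and were not tested. The third averaged 3.62 ± 0.50 in Cre-labelled and 3.25 ± 0.88 in control-labelled lungs, and the fourth 1.11 ± 0.89 in Cre-labelled and 2.33 ± 0.99 in control-labelled lungs (log2 signal, SD, n = 3 each), with overlapping groups in both cases.

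IGDCC4 (Nope) is known in mice as a surface marker of fetal liver progenitor cells, and whole lungs can carry some tissue of neighbouring organs. The 7 liver genes measured had a summed linear signal of 83.0 to 455 on Cre-labelled and 67.4 to 926 on control-labelled arrays, so the ranges overlapped, and none of the 4 tested passed in limma, nor had an unadjusted p below 0.05 (0 genes). The albumin gene Alb read 5.67, 4.90 and 7.45 in Cre-labelled lungs, against 4.36, 8.69 and 6.64 in control-labelled lungs. Its log2 difference of -0.55 ± 0.97 SE was imprecise. The part of any liver tissue in the Igdcc4 result was not tested. Cardiac muscle genes had a negative difference in 9 of 9, with a median log2 difference of -1.11 and 7 lower at an unadjusted p below 0.05. Their summed linear signal was 2019 to 4995 on Cre-labelled and 3614 to 12351 on control-labelled arrays, and 1 was called lower, the myosin heavy chain gene Myh7. That call was lost without Cre-labelled replicate 1 or 2, without control-labelled replicate 1 and without the intensity trend. The part of that cardiac muscle difference in the Igdcc4 result was not tested either. On whole lung RNA a higher signal can come from more cells that express a gene or from more RNA per cell, and these cannot be told apart here.

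**Figure D2:**
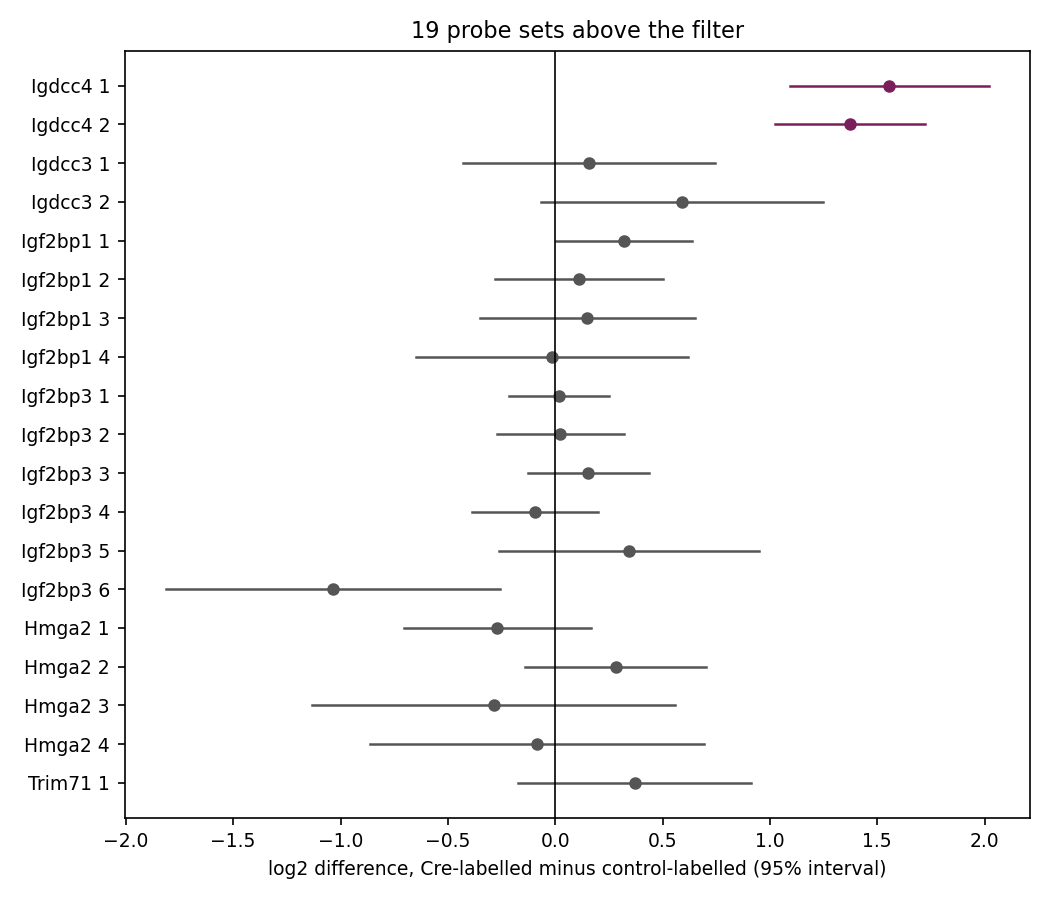
Log2 difference, Cre-labelled minus control-labelled, with its unadjusted 95% interval from limma for the 19 probe sets above the filter, numbered within each gene from the brightest. Both Igdcc4 intervals (in purple) lie above 1, and 15 of the 19 intervals span 0.

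Igdcc3 lies 3207 bases beyond the end of Igdcc4 on chromosome 9, and none of its probe sets passed the threshold. Its brightest probe set read 5.03, 4.61 and 5.32 in Cre-labelled lungs, against 4.97, 4.57 and 4.95 in control-labelled lungs. The groups overlapped, and the log2 difference was 0.16 ± 0.26 SE (95% interval -0.43 to 0.74), which lies below the interval of Igdcc4. A dimmer probe set read 4.15, 4.39 and 4.44 in Cre-labelled lungs, against 3.35, 3.84 and 4.02 in control-labelled lungs. All 3 Cre-labelled arrays were above the control-labelled ones, with a log2 difference of 0.59 ± 0.29 SE (95% interval -0.07 to 1.25), and the threshold was not passed. The third probe set was below the filter, at 1.66 ± 0.36 in Cre-labelled and 2.27 ± 0.68 in control-labelled lungs (log2 signal, SD, n = 3 each).

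The other genes near Igdcc4 (chr9:65101023-65137947 in GRCm38.p6) were also measured. Within 200 kb on either side, 6 genes besides Igdcc3 were tested, namely Dennd4a, Ints14, Hacd3, Dpp8, Parp16 and Clpx. None passed the limma threshold, and only 1 of them, Dennd4a, had an unadjusted p below 0.05. Their log2 differences ran from -0.55 in Dennd4a to 0.33 in Parp16. Dpp8, a dipeptidyl peptidase gene 16520 bases before Igdcc4, differed by -0.10 ± 0.11 SE on the log2 scale (adjusted p from limma, 0.68).

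**Figure D3:**
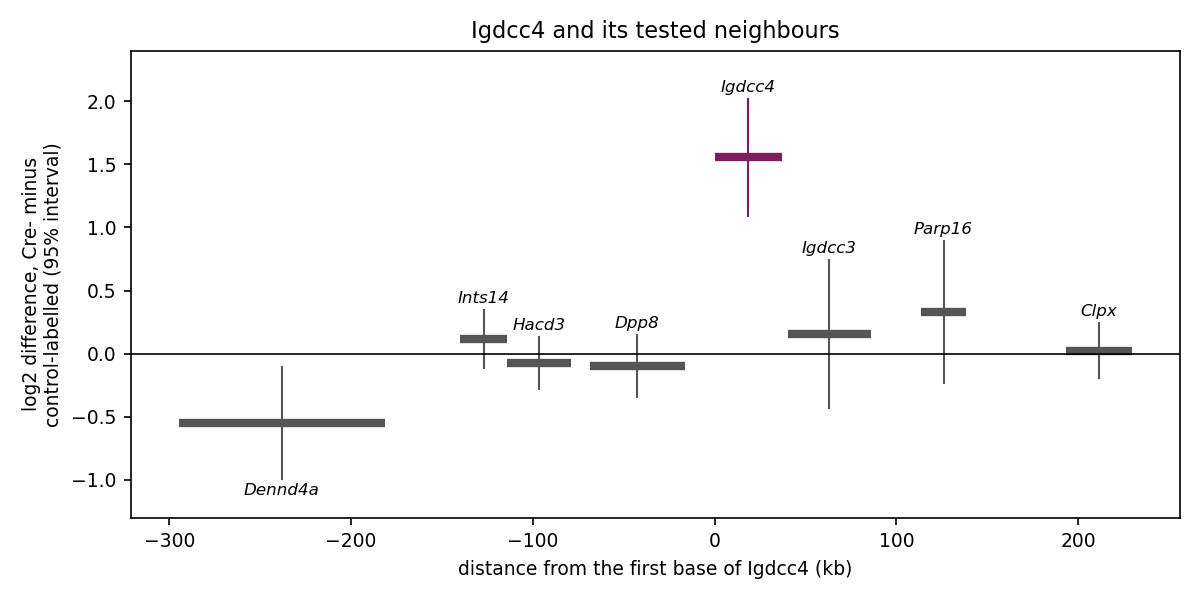
Log2 difference, Cre-labelled minus control-labelled, of Igdcc4 and its 7 tested neighbours against distance in kb from the first base of Igdcc4; horizontal bars span each gene and vertical lines are unadjusted 95% intervals from limma for the brightest probe set. Igdcc4 stands at 1.56, and its neighbours lie between -0.55 and 0.33.

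The Igdcc4 promoter is shown because Igdcc4 is the called gene of the group and Nfib encodes a DNA-binding factor. The window of 300 bases (250 before and 50 after the annotated start, RefSeq, GRCm38.p6, plus strand, chr9:65101236-65101535) has its CpG pairs in capitals, and the window of its neighbour Igdcc3 (plus strand, chr9:65140904-65141203) follows for comparison. The start that the promoter table uses for Igdcc4 (position 65101486) lies 463 bases beyond the first base of the gene's RefSeq interval, which spans all its transcripts, so the Igdcc4 values below hold for that start alone. For Igdcc3 the table's start is the first base of the interval.
Igdcc4: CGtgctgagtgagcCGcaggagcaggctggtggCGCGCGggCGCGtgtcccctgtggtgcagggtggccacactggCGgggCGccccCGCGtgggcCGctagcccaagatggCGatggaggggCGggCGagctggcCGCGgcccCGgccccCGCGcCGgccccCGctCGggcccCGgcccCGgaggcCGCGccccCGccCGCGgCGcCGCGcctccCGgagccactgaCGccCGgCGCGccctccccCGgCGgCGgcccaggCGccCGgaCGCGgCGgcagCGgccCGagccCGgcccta
Igdcc3: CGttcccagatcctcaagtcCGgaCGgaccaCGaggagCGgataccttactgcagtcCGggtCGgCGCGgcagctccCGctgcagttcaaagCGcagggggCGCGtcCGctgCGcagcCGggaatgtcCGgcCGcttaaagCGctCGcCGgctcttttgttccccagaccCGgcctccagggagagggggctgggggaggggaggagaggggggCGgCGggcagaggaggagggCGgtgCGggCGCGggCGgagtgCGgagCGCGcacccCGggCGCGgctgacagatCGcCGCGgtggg
The Igdcc4 window has 49 CpG pairs and is 84.7% G or C, a share that 0.158% of 32851 promoter windows reach, and the Igdcc3 window has 38 CpG pairs and is 73.3% G or C. The palindromic nuclear factor I motif (TTGGC, then 5 bases of any kind, then GCCAA) is in neither window and in 0.0365% of all windows. Its 5-base arm, TTGGC on either strand, is in neither window, against 46.7% of all windows. All windows had a median of 52.7% G or C, so that share is not matched to the printed windows for base composition. Of 10 windows found for 9 listed genes, which include overlapping windows of Hmga1, that arm was in the Trim71 window only.

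By likeness over the 6 arrays, 12272 tested genes with regular names were compared with the brightest Igdcc4 probe set. The 5 with the highest Pearson correlation were Nup133 (r = 0.997), Ncoa3 (r = 0.997), Smarcc1 (r = 0.996), Cnot6 (r = 0.996) and Ubqln2 (r = 0.995). Nup133 encodes a nuclear pore subunit, Ncoa3 a nuclear receptor coactivator, Smarcc1 a SWI/SNF chromatin remodelling subunit and Cnot6 a deadenylase. Their log2 differences, 0.27 in Cnot6 to 0.55 in Ubqln2, were smaller than that of Igdcc4. These 6 points share the labelled contrast, and so many genes were ranked that the correlations only describe the arrays.

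The RNA-binding Igf2bp genes gave mostly overlapping groups. Igf2bp1 spans chr11:95957163-96005944 in GRCm38.p6, and its brightest probe set read 6.99, 6.72 and 7.0 in Cre-labelled lungs, against 6.53, 6.58 and 6.63 in control-labelled lungs. All 3 Cre-labelled arrays were above the control-labelled ones, by a log2 difference of 0.32 ± 0.14 SE (95% interval 0.006 to 0.639), and the array-wide threshold was not passed. The other 3 Igf2bp1 probe sets overlapped between groups, with log2 differences of 0.11, 0.15 and -0.02.

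Igf2bp3 had 6 probe sets, all above the filter. The gene spans chr6:49085218-49215469. Its brightest read 7.96, 8.10 and 8.08 in Cre-labelled lungs, against 8.12, 7.94 and 8.03 in control-labelled lungs. The groups lay within the same narrow range, and the log2 difference of 0.02 ± 0.10 SE had a 95% interval of -0.21 to 0.25. The next 3 gave log2 differences of 0.02, 0.15 and -0.09, each with overlapping groups and with intervals inside -0.39 to 0.44. Several of these bright probe sets carry the _s_at or _x_at suffix, which marks probes shared with other transcripts. The brightest Hmga2 probe set and the third of Igf2bp1 carry such a suffix too.

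The fifth and sixth Igf2bp3 probe sets were less precise. The fifth had a log2 difference of 0.34 ± 0.27 SE with overlapping groups. The sixth and dimmest read 4.51, 3.62 and 3.37 in Cre-labelled lungs, against 5.0, 4.53 and 5.08 in control-labelled lungs. Its groups were barely separated, and its Cre-labelled mean was below the filter level. The log2 difference was -1.04 ± 0.35 SE (95% interval -1.81 to -0.26), and the threshold was not passed. The 5 brighter probe sets had log2 differences between -0.09 and 0.34, and which transcripts the sixth covers is not stated in the sources used here.

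The probe sets of the chromatin gene Hmga2 (chr10:120361268-120476469) differed in sign. The brightest read 7.58, 7.15 and 7.39 in Cre-labelled lungs, against 7.86, 7.21 and 7.87 in control-labelled lungs, a log2 difference of -0.27 ± 0.19 SE (95% interval -0.71 to 0.17). The next read 6.53, 6.78 and 6.90 in Cre-labelled lungs, against 6.72, 6.12 and 6.52 in control-labelled lungs, a log2 difference of 0.28 ± 0.19 SE (95% interval -0.14 to 0.70). Groups overlapped in all 4 Hmga2 probe sets, and the dimmer 2 had log2 differences of -0.29 ± 0.38 SE and -0.09 ± 0.35 SE. No direction can be given for Hmga2 from these probe sets.

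Trim71 (chr9:114511268-114564369), an RNA-binding ubiquitin ligase gene, had a probe set just above the filter. It read 4.63, 4.64 and 4.45 in Cre-labelled lungs, against 4.10, 4.2 and 4.31 in control-labelled lungs. The groups did not overlap, the log2 difference was 0.37 ± 0.24 SE (95% interval -0.17 to 0.91), and the threshold was not passed. A second Trim71 probe set was below the filter, at 3.40 ± 0.55 in Cre-labelled and 3.32 ± 0.98 in control-labelled lungs (log2 signal, SD, n = 3 each).

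Signal of the let-7 processing inhibitors Lin28a (chr4:134003330-134019196) and Lin28b (chr10:45376617-45486314) was too low to compare. The 2 Lin28a probe sets averaged 1.45 ± 1.87 and 1.22 ± 0.97 in Cre-labelled lungs, against 2.19 ± 0.68 and 1.76 ± 0.88 in control-labelled lungs (log2 signal, SD, n = 3 each). The Lin28b probe set read -3.16, -2.87 and -2.45 in Cre-labelled lungs, against -1.49, -3.18 and 0.04 in control-labelled lungs. Every array was below the filter level for these 3 probe sets, and the groups overlapped in each. A difference in Lin28a or Lin28b was not detectable at this signal, and a low probe set signal does not show that a gene is silent.

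Other genes reported as let-7 targets went in both directions. Of 22 tested, 13 had a positive difference, and 4 were higher and 1 lower at an unadjusted p below 0.05. After adjustment 1 rose, none fell and 21 did not pass, beside 1.92% of all tested genes called higher, and the median log2 difference was 0.03 against -0.01 over all tested genes. The gene that rose was Mycn, a proto-oncogene of embryonic growth, which read 8.09, 8.23 and 7.76 in Cre-labelled lungs, against 7.42, 7.41 and 7.02 in control-labelled lungs. The groups did not overlap, and the log2 difference was 0.74 ± 0.16 SE (limma adjusted p = 0.039). Its call was lost without Cre-labelled replicate 1 or 2 and without each control-labelled replicate, and 1 of the other 2 tested Mycn probe sets had the opposite sign. The transcriptional repressor gene Bach1 differed by -0.39 ± 0.12 SE on the log2 scale (adjusted p from limma, 0.12), the cyclin gene Ccnd2 by 0.33 ± 0.11 SE (adjusted p = 0.14) and the E2F family gene E2f5 by 0.28 ± 0.11 SE (adjusted p = 0.21). Of 6 other tested Ccnd2 probe sets, 1 was called higher. Dicer1 stands in this list and in the next.

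Among 22 factors of microRNA processing, let-7 uridylation and silencing, none was called in the limma fit, with 3 higher and 1 lower at an unadjusted p below 0.05. The median log2 difference was 0.12. Ago4, an Argonaute gene, differed by -0.58 ± 0.15 SE on the log2 scale (adjusted p from limma, 0.072). Drosha, the nuclease that cuts primary microRNAs, differed by 0.67 ± 0.21 SE (adjusted p = 0.12), and Tut4, a uridylyltransferase that LIN28A recruits to let-7 precursors, by 0.39 ± 0.14 SE (adjusted p = 0.15).

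The proteins found with IGF2BPs in messenger ribonucleoprotein granules gave no call by their brightest probe sets. Of 10 tested, none passed in limma, 3 were higher at an unadjusted p below 0.05, 9 had a positive difference, and the median log2 difference was 0.24. Elavl1, which encodes the RNA stabiliser HuR, differed by 0.46 ± 0.12 SE on the log2 scale (adjusted p from limma, 0.066), and the helicase gene Dhx9 by 0.48 ± 0.15 SE (adjusted p = 0.12). Of 4 other tested probe sets of Syncrip, an RNA-binding protein gene of this list, 1 was called higher. Igf2, whose messenger RNA gave the IGF2BP proteins their name, read 11.26, 11.57 and 11.57 in Cre-labelled lungs, against 11.29, 11.46 and 11.44 in control-labelled lungs. The groups overlapped, and the log2 difference was 0.07 ± 0.13 SE (95% interval -0.21 to 0.35; limma adjusted p = 0.81). Of the 12 tested fetal growth genes, Igf2 included, none was called in limma, with 2 higher and 1 lower at an unadjusted p below 0.05. The growth factor genes Mdk and Ptn differed by 0.98 ± 0.27 SE (limma adjusted p = 0.084) and 0.93 ± 0.36 SE (adjusted p = 0.19), and Dlk1, a NOTCH ligand homologue, by -0.38 ± 0.16 SE (adjusted p = 0.23).

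Relatives of the listed genes were mostly below the threshold. Of 6 other high mobility group genes, none passed in limma, 3 were higher at an unadjusted p below 0.05, and the median log2 difference was 0.32. The nucleosome-binding gene Hmgn3 differed by 0.47 ± 0.12 SE on the log2 scale (adjusted p from limma, 0.074), Hmgb2 by 0.36 ± 0.13 SE and Hmgb3 by 0.37 ± 0.13 SE. Of 7 genes of the DCC and neogenin receptors and their ligands, the branch that holds Igdcc3 and Igdcc4, none passed in limma, 1 was higher at an unadjusted p below 0.05, and the median log2 difference was -0.12. Prtg, which encodes protogenin, differed by 0.76 ± 0.32 SE on the log2 scale (adjusted p from limma, 0.23), and the netrin receptor gene Dcc by 0.72 ± 0.33 SE (adjusted p = 0.27). Of 4 other tested probe sets of Neo1, the neogenin gene, 1 was called lower. Of 3 other TRIM-NHL genes, relatives of Trim71, Trim3 fell and the others did not pass. Trim3 read 8.0, 8.16 and 8.0 in Cre-labelled lungs, against 8.65, 8.60 and 8.52 in control-labelled lungs. The groups did not overlap, the log2 difference was -0.54 ± 0.10 SE (limma adjusted p = 0.024), and the call held in 1 of the 6 fits that left out an array. Trim2 differed by 0.44 ± 0.11 SE on the log2 scale (adjusted p from limma, 0.057) and Trim32 by 0.31 ± 0.11 SE (adjusted p = 0.16).

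Other gene groups moved with the same contrast, and their part in the Igdcc4 result was not tested. Of 19 tested cell cycle genes, 12 rose and none fell, with a median log2 difference of 0.52. They were Mcm2, Mcm3, Mcm4, Mcm5, Mcm7, Cdc6, Cdt1, Mki67, Top2a, Ccna2, Bub1 and Aurka, with Mcm4, a subunit of the replicative helicase, at 0.67 ± 0.11 SE (limma adjusted p = 0.015). When 1 array was left out, 0 to 5 genes of this list were called, and none was without the intensity trend. The summed linear signal of 7 lung epithelium genes was 15553 to 16335 on Cre-labelled and 17029 to 29046 on control-labelled arrays. Such a sum is weighted towards the brightest genes of its list, here among them Sftpc, which was not called. In this list 3 fell, the water channel gene Aqp5 and the surfactant protein genes Sftpb and Sftpa1. None of the 7 was called without control-labelled replicate 3 or without the intensity trend, and the epithelial adhesion gene Epcam differed the other way, by 0.32 ± 0.12 SE (limma adjusted p = 0.18). The 8 mesenchyme genes summed to 13553 to 14339 on Cre-labelled and 13732 to 15139 on control-labelled arrays, and 1, the signalling gene Wnt2, rose, a call lost without the intensity trend. The 5 leukocyte genes summed to 2386 to 3034 on Cre-labelled and 4097 to 4831 on control-labelled arrays, and 1, the lysozyme gene Lyz2, fell. That call was lost without Cre-labelled replicate 1 or 3, without control-labelled replicate 2 and without the intensity trend. None of 6 endothelial genes passed in limma, 3 were lower at an unadjusted p below 0.05, and they summed to 4869 to 6075 on Cre-labelled and 6645 to 7360 on control-labelled arrays. None of 5 tested erythroid and none of 4 tested skeletal muscle genes passed in limma, with 2 and 1 lower at an unadjusted p below 0.05. The median log2 difference of the 4 skeletal muscle genes was -1.49. With those below the filter, 8 such genes summed to 246 to 312 on Cre-labelled and 301 to 3195 on control-labelled arrays. The muscle actin gene Acta1 read 5.69, 5.53 and 5.77 in Cre-labelled lungs, against 9.95, 5.82 and 5.84 in control-labelled lungs. Its high value stood on control-labelled replicate 1 alone.

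**Figure D4:**
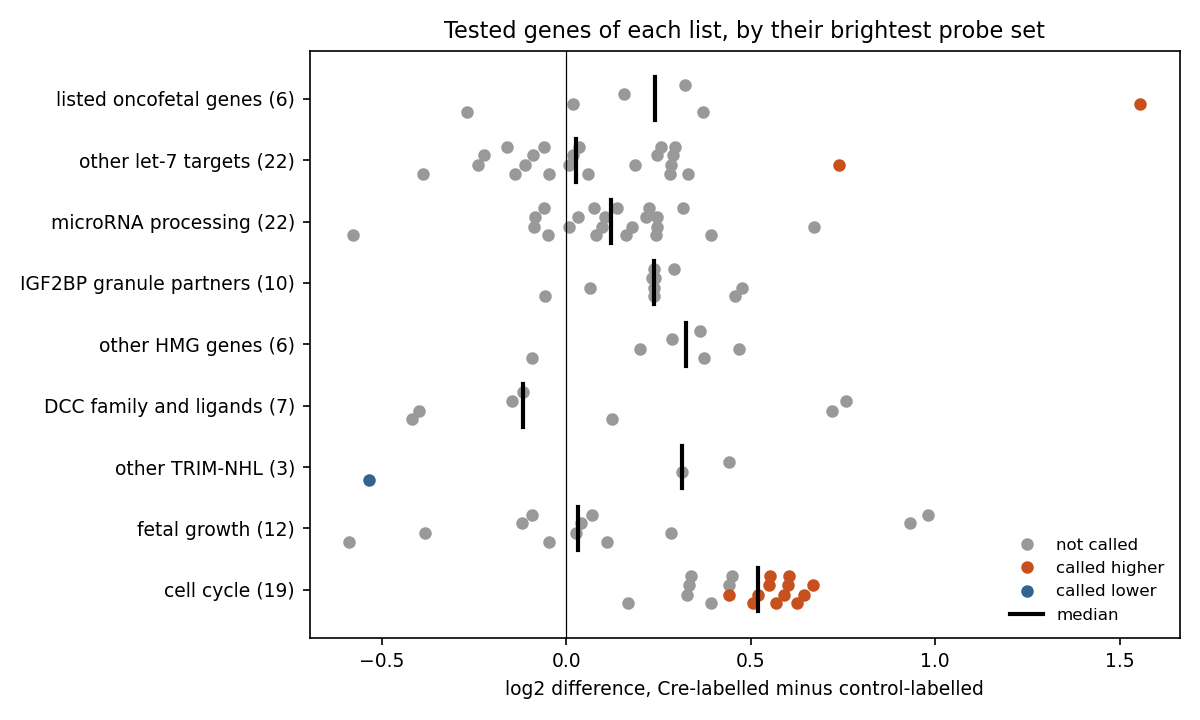
Log2 difference, Cre-labelled minus control-labelled, of each tested gene by its brightest probe set, 1 point per gene, grouped by list with the number tested in brackets; black bars are medians. Igdcc4 is the point at 1.56 in the top row, which holds the 6 listed genes above the filter, Mycn is the called let-7 target at 0.74, and all 19 cell cycle genes lie above 0.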

How the data were processed

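Total RNA of 6 fetal lung samples was hybridised to Affymetrix expression arrays. The authors deposited 1 table of log2 signals, made with MAS5 and affy per the submitters' processing notes; versions and probe-level files were not used here. On the linear scale every array had the same trimmed mean (150.04 to 150.05, with 2% of probe sets left out at each end), and 4.93% to 6.50% of log2 values per array were below 0. The number of arrays limits the precision.

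Of 45101 probe sets, 64 controls were left out, and 27022 with a mean at or above the 40th percentile were tested with limma 3.58.1 in R 4.3.3 (intensity trend, two-sided, Benjamini-Hochberg adjustment, threshold 0.05). The spread behind the p-values is that between samples labelled as biological replicates. In the fit, limma drew each probe set's spread towards that of probe sets with like signal (5.32 prior against 4 residual degrees of freedom). A printed SE can therefore differ from the probe set's own spread. The platform annotation gave 34945 probe sets 1 symbol, 932 several and 9160 none, and 34741 were matched to RefSeq GRCm38.p6. The brightest probe set stood for a gene. Of 174 entries in 16 gene lists, 161 matched. The text names all single-symbol probe sets of the 10 genes. It names every gene of the 8 pathway lists past the threshold and otherwise 2 to 4 of such a list with the smallest p. It also names the 5 genes most like Igdcc4, RIKEN, Gm, LOC and EST names left out. Of the cell type markers those called are named. The let-7 host genes, neighbours, Igf2, Syncrip, Neo1, Alb, Epcam, Sftpc, Nkx2-1, Tbx4, Twist2 and Acta1 were added after values were seen. The genes and lists were chosen with earlier results of these data known. The fit was tested on simulated data. Alternatives changed the normalization, offset, filter, variance model, threshold, probe set rule, replicate block and arrays included.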

Additional observations from a re-analysis of the deposited data

How the results depend on the processing

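Against 963 probe sets called over the array, 171 were called without the intensity trend and 2120 at an adjusted p of 0.10. Leaving out 1 array gave 308 to 499, so each array moved the count by over 1.5 times, in part because fewer samples were fitted: 349, 499 and 434 without Cre-labelled replicate 1, 2 and 3, and 408, 314 and 308 without control-labelled replicate 1, 2 and 3. Igdcc4 was the called gene of the listed 10 in 15 of 17 alternatives and in each fit without 1 array (1 to 1); 0 were called without the intensity trend and when all probe sets of a gene were averaged, where its log2 difference was 0.52. Its second probe set passed in all 16 alternatives that keep probe sets apart. The alternatives with an adjusted p of 0.10 and with a 1.5-fold minimum reused the main fit, so Igdcc4 could not fail them. Of the let-7 target list, which holds genes outside the listed 10, 1 was called, Mycn. Fits without 1 array called 0 to 1 of that list. With a common median, with no filter, without the intensity trend, or with all probe sets of a gene averaged, 0 were called. With this averaging Mycn was at -0.20; the cause was not tested. With the replicate block 1309 probe sets, 1 listed gene (Igdcc4) and 1 gene of the let-7 target list (Mycn) were called. Deviations of same-numbered samples correlated at -0.01, 0.20 and 0.14, so the numbers were not taken to pair samples, and not every sample correlated best with its own number. Against 12 cell cycle genes called, 0 were called without the intensity trend, 4 with a common median, and 6 each at the 1.5-fold minimum and with probe sets averaged. Without the intensity trend 0 genes were called in every other list too. Signal near the filter limits the values of Igdcc3, Trim71, Lin28a and Lin28b.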
